A study of Mus musculus with 4 samples.

Results

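Ketone body metabolism was followed through 4 genes, Bdh1, Oxct1, Acat1 and Slc16a1, out of 32285 features measured in injured neonatal mouse hearts. The 4 genes were chosen by symbol as the route by which a cell takes up and burns ketone bodies. The assay was Visium, in which a section is laid on a slide of barcoded spots that capture polyadenylated RNA, each spot covering a small region that can hold several cells. Fresh frozen 10 µm sections came from ICR mice, an outbred strain, whose left ventricular apex had been cryoinjured by 5 seconds of contact with a cold probe at postnatal day 1. Hearts were taken 1, 4, 7 and 14 days later, called d1, d4, d7 and d14 here, when the mice were at postnatal days 2, 5, 8 and 15. Each day had 1 section, every heart was injured, and no uninjured section was analysed here, so days after injury and age cannot be told apart and no test between days was possible.

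Ketone bodies, mainly beta-hydroxybutyrate and acetoacetate, are made by the liver from fatty acids and are burned by the heart, and milk feeding makes them an abundant fuel before weaning. They enter cells through monocarboxylate transporters such as Slc16a1 (MCT1). In mitochondria Bdh1 oxidises beta-hydroxybutyrate to acetoacetate, Oxct1 (SCOT) activates acetoacetate with the CoA of succinyl-CoA in the step that commits it to oxidation, and Acat1 splits acetoacetyl-CoA into acetyl-CoA for the citric acid cycle. Acat1 also works in isoleucine breakdown and Slc16a1 also carries lactate and pyruvate, so only Bdh1 and Oxct1 are largely devoted to ketone bodies.

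On GRCm38, with GENCODE vM21 gene models, Bdh1 (ENSMUSG00000046598) lies on chromosome 16 at 31422280 to 31458901 on the plus strand. Oxct1 (ENSMUSG00000022186) lies on chromosome 15 at 4026383 to 4155344, plus strand. Acat1 (ENSMUSG00000032047) lies on chromosome 9 at 53580522 to 53610382 on the minus strand, and Slc16a1 (ENSMUSG00000032902) on chromosome 3 at 104638668 to 104658462 on the plus strand. All 4 are protein-coding. Genes annotated over Bdh1, Oxct1 and Slc16a1 held at most 17 UMIs over all sections, against 5759 for Oxct1, 8544 for Acat1, 2935 for Slc16a1 and 18 for Bdh1.

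Acat1 also had its highest level at d14, but no RefSeq promoter of it was in the sources used, and those of Bdh1 are not shown. The promoters shown are those of Oxct1 and Slc16a1, the 2 members that stood highest at d14 relative to d1. Each is the RefSeq sequence of GRCm38.p6 covering 250 bases before and 50 bases after the gene's start. Oxct1 is at chr15:4026178-4026477 and Slc16a1 at chr3:104638414-104638713, both on the plus strand. Capitals mark matches to 3 motifs searched on both strands, the nuclear receptor half-site AGGTCA, the E-box CACGTG and the GC box GGGCGG.

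Oxct1: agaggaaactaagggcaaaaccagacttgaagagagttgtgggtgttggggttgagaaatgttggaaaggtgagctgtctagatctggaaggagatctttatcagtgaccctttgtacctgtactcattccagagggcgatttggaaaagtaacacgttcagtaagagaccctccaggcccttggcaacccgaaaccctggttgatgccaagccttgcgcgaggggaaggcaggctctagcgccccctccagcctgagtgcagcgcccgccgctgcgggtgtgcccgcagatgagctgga

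Slc16a1: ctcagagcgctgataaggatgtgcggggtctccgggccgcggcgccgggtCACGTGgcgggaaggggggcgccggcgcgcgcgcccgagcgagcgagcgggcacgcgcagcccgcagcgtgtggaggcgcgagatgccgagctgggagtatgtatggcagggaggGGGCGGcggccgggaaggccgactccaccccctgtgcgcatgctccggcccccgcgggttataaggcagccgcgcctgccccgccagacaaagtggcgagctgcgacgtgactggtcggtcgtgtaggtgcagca

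The Slc16a1 window held 1 E-box at position 51 and 1 GC box at position 166, and its GC content was 73.7%, against a median of 52.7% over 32851 promoters. The Oxct1 window had 55.3% GC and no match to any of the 3 motifs, which says only that these letters are not in this window. Over all 32851 promoters 16.3% held AGGTCA, 7.15% CACGTG and 35.7% GGGCGG, and no matches overlapped in these windows. Positions are counted from 1 at the 5′ end. A match is a description of letters and not a binding site.

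The sections kept 445, 662, 774 and 1175 spots with at least 500 UMIs at d1, d4, d7 and d14, with median totals of 7810, 7998, 8028 and 3770 UMIs per spot. Levels are in CPM, UMIs per 1000000 of the section's total without haemoglobin and mitochondrially encoded genes, and that total was 3224558 to 5846387 UMIs. Of 1328 distinct spot barcodes 1000 occurred in more than 1 section, as arrays share one barcode set. The 12 ventricular cardiomyocyte markers were all detected in every section and summed to 67948 to 97073 CPM, and no marker list of another cell type summed to more than 12002 CPM. All intervals are 95% intervals that cover counting error only, and not differences between hearts. A lower level in a pool of spots can come from fewer cells of a type or from less RNA per cell, and these cannot be told apart.

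Slc16a1, the transporter, was lowest at d4 and highest at d14. It had 151, 121, 145 and 216.5 CPM at d1, d4, d7 and d14, from 486, 709, 808 and 932 UMIs. The ratio to d1 was 0.805 at d4 (0.716 to 0.905), 0.963 at d7 (0.859 to 1.08) and 1.44 at d14 (1.29 to 1.61). The d7 section was thus not distinguishable from d1 within counting error, while the d14 section lay above the other 3.

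Bdh1, which opens beta-hydroxybutyrate oxidation, was nearly undetected. It had 5, 9, 0 and 4 UMIs at d1, d4, d7 and d14, or 1.55, 1.54, 0 and 0.929 CPM, in 17 spots over all sections. Whether the annotation of its transcript end in the reference used for counting lowers these counts could not be checked. The low counts are therefore not read as absence of Bdh1 RNA. The 0 UMIs at d7 allow up to 0.539 CPM (3 counts of the total). The interval of the d7 ratio reached at most 0.632 against d1 and 0.532 against d4, and the intervals of d4 and d14 against d1 included 1 (0.299 to 3.77 and 0.119 to 2.78). Bdh1 never reached the 20 CPM needed for a call, so counts of members past a threshold below concern the other 3.

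Oxct1, the committing enzyme, had the largest ratio between days of the 3 well-detected members. It had 201, 263, 241 and 518.5 CPM at d1, d4, d7 and d14, from 648, 1539, 1340 and 2232 UMIs. The ratio to d1 was 1.31 at d4 (1.19 to 1.44), 1.20 at d7 (1.09 to 1.32) and 2.58 at d14 (2.36 to 2.82). The first 3 sections lay close together and d14 stood well above them, 2.16 times the d7 level (2.01 to 2.31).

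Acat1, the last enzyme, stayed within a narrow range. It had 467, 418, 416 and 529 CPM at d1, d4, d7 and d14, from 1505, 2446, 2316 and 2277 UMIs. The ratio to d1 was 0.896 at d4 (0.840 to 0.957), 0.891 at d7 (0.835 to 0.952) and 1.13 at d14 (1.06 to 1.21). Against d7, d14 was 1.27 times as high (1.20 to 1.35), so all 3 measured members were higher at d14 than at d7 but by unlike amounts.

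**Figure D1:**
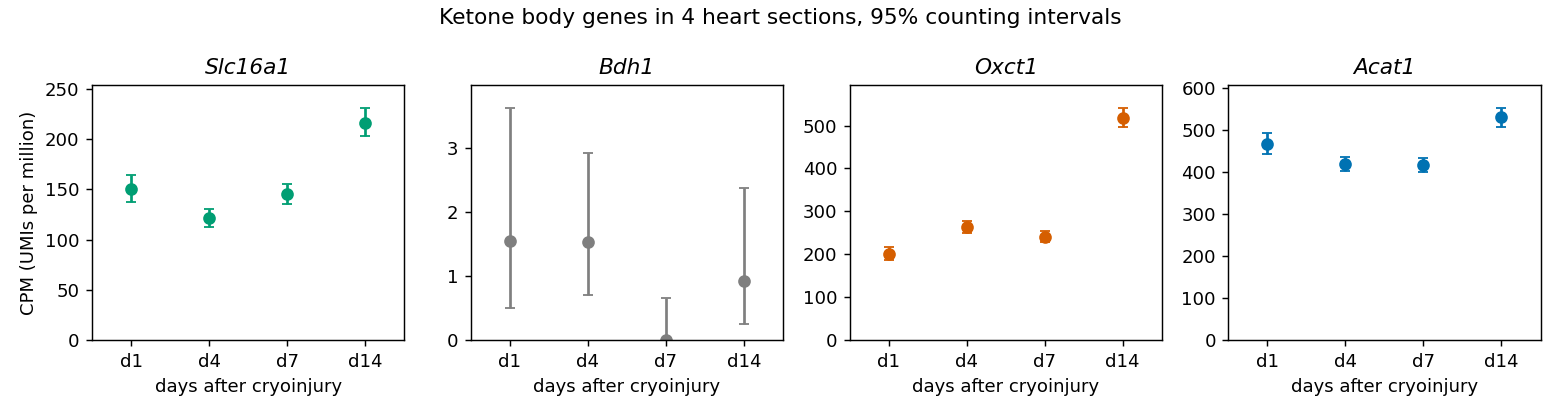
Levels of the 4 members in CPM (vertical axes, each from 0 with its own scale) in the 1 section of each day, as points with 95% counting intervals. Oxct1 reached 518.5 CPM at d14 against 201 to 263 CPM on the other days, Slc16a1 216.5 against 121 to 151, Acat1 stayed between 416 and 529, and Bdh1 never passed 1.55.

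A feature with 20 CPM or more in either section was called higher for a ratio of 2 and above, and lower for 0.5 and below, provided the interval left out 1. At d4 against d1, 0 of the 3 measured members were called, against 4.69% of all features called higher and 1.44% called lower. At d7 against d1 the count was 0 as well, with 3.45% of features higher and 2.85% lower. At d7 against d4 it was again 0, with 0.723% higher and 1.51% lower.

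At d14, Oxct1 was the 1 member called higher against d1, where 7.32% of all features were called higher and 6.07% lower. It was also the 1 member called higher against d7, where the shares were 5.04% and 3.51%. The Oxct1 ratio of d14 to d1 stood at the 95.9 percentile of 6982 measured features, the Slc16a1 ratio at the 82.3 and the Acat1 ratio at the 66.3. The median log2 ratio of all features in that comparison was -0.06, and that of the 3 measured members was 0.52. The ratios of d14 to d1 and to d7 share the d14 section.

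The d14 section differed from d1 in more than the members. The cardiomyocyte list summed to 97073 CPM at d14 and 81509 at d1, the 10-gene fibroblast list to 4410 and 837 CPM, with every gene of both lists detected at both days. Mitochondrially encoded genes took 8.54% of UMIs at d14 and 5.57% at d1, and the median spot held 3770 and 7810 UMIs. Their part in the Oxct1 difference was not tested. Per UMI of the cardiomyocyte list the Oxct1 ratio of d14 to d1 was 2.17 (1.98 to 2.37), and per UMI of a 20-gene respiratory chain list it was 2.37 (2.17 to 2.59). The Slc16a1 ratio was 1.21 (1.08 to 1.35) and 1.32 (1.18 to 1.48) on these scales. The Acat1 ratio was 0.952 (0.891 to 1.02) per cardiomyocyte UMI, which is the opposite direction to its CPM ratio and has an interval that includes 1. At d4 against d1 the Acat1 direction also turned on this scale, to 1.08 (1.008 to 1.15).

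Set against the other measured members, Oxct1 was relatively higher at d14. Per Acat1 UMI it was 2.28 times as high at d14 as at d1 (2.04 to 2.54), and per Slc16a1 UMI 1.80 times (1.56 to 2.07). There were 980 Oxct1 UMIs per 1000 Acat1 UMIs at d14, against 431 at d1. At d4 the same ratio to Acat1 was already 1.46 times that of d1 (1.31 to 1.64), and at d7 1.34 times (1.20 to 1.51).

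Of 10 genes listed as other enzymes of ketone body, acetate and sterol metabolism, 4 were measured at d14 against d1, with 1 higher and 2 lower. Of all features 7.32% were called higher and 6.07% lower in that comparison. In the d4 and d7 comparisons with d1, 4 of the 10 genes were measured and 0 called, with median log2 ratios of -0.14 and -0.42. Acss1, the mitochondrial enzyme that activates acetate, was the one called higher, at 65.4, 50.1, 111 and 235 CPM over the 4 days, or 3.596 times d1 at d14 (3.098 to 4.19). The 2 lower were enzymes of the cytosolic route to sterols, Hmgcs1 at 43.2 CPM in d14 against 101 in d1 and Acat2 at 8.60 against 20.5. Acat2 reached the 20 CPM threshold through d1 alone, so its call could only be lower. The median log2 ratio of the 4, Acat2 included, was -0.63, beside -0.06 for all features. Oxct2a and Oxct2b, the testis relatives of Oxct1, had 0 UMIs in every section.

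**Figure D2:**
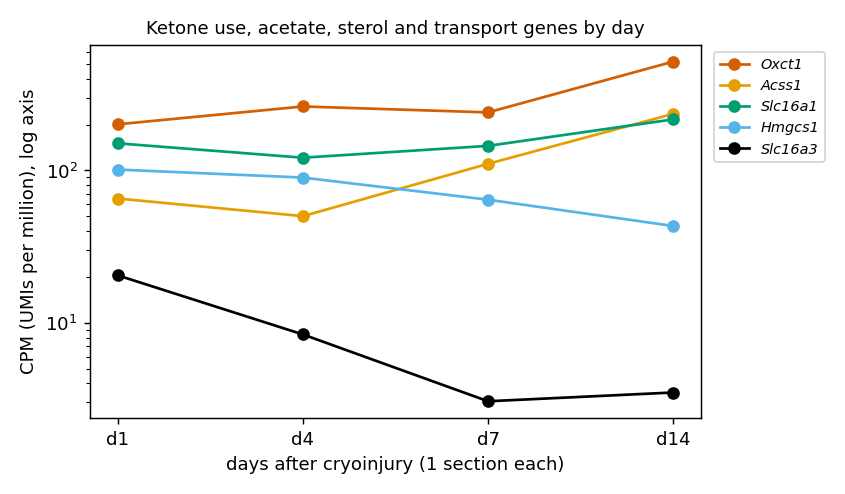
CPM on a log axis over the 4 days (1 section each, no error bars) for ketone use (Oxct1), acetate activation (Acss1), transport (Slc16a1, Slc16a3) and sterol synthesis (Hmgcs1). Oxct1 and Acss1 end at 518.5 and 235 CPM at d14, while Hmgcs1 is at 43.2 CPM and Slc16a3 at 3.49.

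Among 15 other genes of monocarboxylate transport, 6 were measured at d14 against d1, 0 were called higher and 1 lower, and 5 were measured in each of the d4 and d7 comparisons with d1, again with 0 higher and 1 lower. The lower one was Slc16a3 (MCT4), a transporter suited to lactate export, with 20.5, 8.38, 3.05 and 3.49 CPM at d1, d4, d7 and d14. It had 66, 49, 17 and 15 UMIs and reached the 20 CPM threshold in the d1 section alone, so the calls on the 3 later days could only be lower and share that 1 value. Of all features 4.69%, 3.45% and 7.32% were called higher at d4, d7 and d14 against d1, and 1.44%, 2.85% and 6.07% lower. Bsg, the chaperone that brings Slc16a1 to the membrane, had 651, 829, 864 and 1226 CPM, and the mitochondrial pyruvate carrier subunit Mpc1 had 317, 288, 415 and 510 CPM. At d14 Bsg was 1.88 times d1 (1.79 to 1.98) and Mpc1 1.61 times (1.49 to 1.73), both short of 2-fold. Mpc2, the carrier's other subunit, had 675, 487, 690.5 and 628 CPM, and at d14 was 0.93 times d1 (0.879 to 0.984). The list's median log2 ratio at d14 against d1, Slc16a3 included, was 0.08.

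Of 12 genes for ketone receptors and nuclear regulators, 3 reached the level threshold at d4, d7 and d14 against d1 and 0 were called on any of these days. Ppargc1a, a coactivator of mitochondrial genes, had 61.1, 41.2, 44.4 and 92.2 CPM over the 4 days and was the 1 called higher at d14 against d7, at 2.08 times (1.77 to 2.45). Of all features 5.04% were called higher in that comparison. Hcar2 and Ffar3, receptors that bind ketone bodies or short-chain fatty acids, had 0 UMIs in every section.

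Matrix-rich spots were the 10% of each section's spots in which 18 collagen and other matrix genes took the largest share of UMIs, 45, 67, 78 and 118 spots at d1, d4, d7 and d14. The share is continuous, and 9, 16, 12 and 41 spots lay within 10% of the threshold, so the class is one end of a range and not a cell type. In these spots the cardiomyocyte list summed to 55652 CPM against 84032 in the rest at d1, 32605 against 73168 at d4, 42075 against 86586 at d7, and 61141 against 101139 at d14. Macrophage markers summed to 1084 to 2870 CPM in matrix-rich spots over the 4 days and 176 to 671 CPM in the rest. Median depth was 6068 against 7968 UMIs per spot at d1, 11808 against 7493 at d4, 6416 against 8119 at d7 and 3869 against 3753 at d14. The part of these differences in the member ratios was not tested beyond the division by cardiomyocyte UMIs given below.

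Acat1 was lower in matrix-rich spots of every section. It had 303 CPM in matrix-rich spots against 483 in the rest at d1, 178 against 454 at d4, 234 against 433 at d7, and 297 against 555 at d14. The ratios were 0.629 (0.5004 to 0.781), 0.392 (0.327 to 0.467), 0.542 (0.444 to 0.656) and 0.535 (0.445 to 0.639), with every interval below 1 and the d4 ratio past the 2-fold threshold.

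Slc16a1 also lay below 1 in every section. It had 126 CPM in matrix-rich spots against 153 in the rest at d1, 89.0 against 126 at d4, 90.8 against 150.1 at d7, and 110 against 229 at d14. The ratios were 0.820 (0.567 to 1.15), 0.707 (0.541 to 0.910), 0.605 (0.434 to 0.823) and 0.480 (0.351 to 0.642). The d1 interval included 1, and d14 was past 2-fold.

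Oxct1 differed from the other members in the d4 section. It had 160.4 CPM in matrix-rich spots against 205 in the rest at d1, 274 against 262 at d4, 184 against 246 at d7, and 375 against 535 at d14. The ratios were 0.783 (0.567 to 1.06), 1.05 (0.899 to 1.21), 0.747 (0.594 to 0.929) and 0.701 (0.594 to 0.822). At d4 the interval for Oxct1 included 1, and the ratio was 0.789 in the top 5% of spots, while the Acat1 ratio was at its lowest of the 4 days. Per Acat1 UMI, Oxct1 was 2.67 times as high in matrix-rich spots as in the rest at d4 (2.11 to 3.37), against 1.25 at d1 (0.841 to 1.83), 1.38 at d7 (1.02 to 1.86) and 1.31 at d14 (1.03 to 1.68). Per Slc16a1 UMI, Oxct1 at d4 was 1.48 times as high there as in the rest (1.1 to 2.01).

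Of the 9 Bdh1 UMIs at d4, 4 were in matrix-rich spots and 5 in the rest, 5.32 against 0.982 CPM, a ratio of 5.42 with an interval of 1.08 to 25.2, and short of the 20 UMIs needed for a call. By the 2-fold rule 0 members were called in the matrix-rich spots at d1, where 8.86% of features were called higher and 2.43% lower. At d4 Acat1 was the 1 member called lower, where 10.5% were higher and 6.51% lower. At d7 the count was 0, where 11.7% were higher and 3.12% lower, and at d14 Slc16a1 was the 1 called lower, where 11.7% were higher and 2.06% lower. With the top 20% of spots in place of the top 10%, the Acat1 ratio at d4 was 0.512 and was not called. The Slc16a1 ratio at d14 was not called with the top 20% (0.634), a mixed injury list (0.555), the expression cluster richest in matrix (0.547) or without the 10% most atrial spots (0.555, an alternative chosen after seeing the data). At 1.5-fold 1 member was lower at d1 (Acat1) against 5.16% of features, 1 at d4 (Acat1) against 11.0%, and 2 at d7 against 7.05% and at d14 against 5.62% (Acat1 and Slc16a1 on both days). Median log2 ratios of the 3 measured members were -0.35, -0.50, -0.73 and -0.90 at d1, d4, d7 and d14, against 0.11, 0.09, 0.19 and 0.22 for all features measured.

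Divided by the UMIs of the cardiomyocyte list in the same spots, the Acat1 ratios were 0.949 (0.755 to 1.18), 0.881 (0.734 to 1.05), 1.12 (0.912 to 1.35) and 0.885 (0.736 to 1.06) at d1, d4, d7 and d14, each interval including 1. Oxct1 per cardiomyocyte UMI was higher in matrix-rich spots at d4, 8.40 against 3.58 per 1000, a ratio of 2.35 (2.02 to 2.72), and at d7, 4.37 against 2.84 per 1000, a ratio of 1.54 (1.22 to 1.91). At d1 it was 1.18 (0.856 to 1.60) and at d14 1.16 (0.982 to 1.36), both with intervals that include 1. On this scale Slc16a1 was 1.59 at d4 (1.21 to 2.04), with 1.24 (0.856 to 1.74) at d1, 1.24 (0.893 to 1.69) at d7 and 0.794 (0.581 to 1.06) at d14, and intervals other than that of d4 included 1. The respiratory chain list gave 2.27 for Oxct1 at d4 (1.95 to 2.63) and 1.53 for Slc16a1 (1.17 to 1.98). The cardiomyocyte list was itself lower in matrix-rich spots, at 32605 against 73168 CPM at d4 and 42075 against 86586 at d7. A gene with equal CPM in both kinds of spots would therefore also lie above 1 on this scale. By CPM the Oxct1 ratio stood at the 48.4 percentile of measured features at d4 and the 20.3 at d7.

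**Figure D3:**
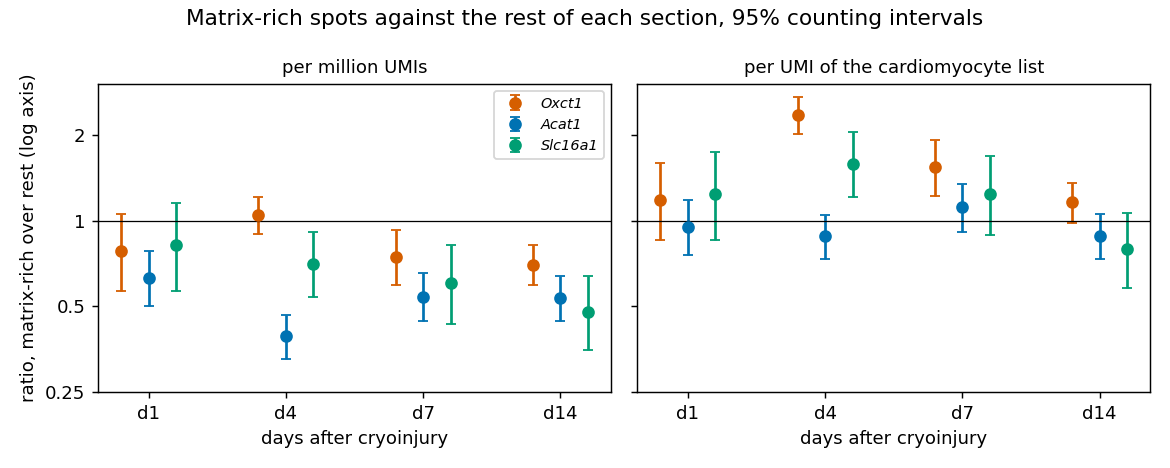
Ratio of matrix-rich spots over the rest (log axis, line at 1) for Oxct1, Acat1 and Slc16a1 in each section, per 1000000 UMIs on the left and per cardiomyocyte list UMI on the right, with 95% counting intervals. On the left Acat1 lies below 1 in all 4 sections and Oxct1 sits at 1.05 at d4. On the right Oxct1 reaches 2.35 at d4 while all Acat1 intervals include 1. The cardiomyocyte list was itself lower in matrix-rich spots of every section, which raises all ratios on the right.

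Markers of several other cell types also differed between the d4 matrix-rich spots and the rest. The 9 mural genes summed to 3227 CPM against 1115, the 12 macrophage genes to 1084 against 176, and the 10 fibroblast genes to 2843 against 1264. Within the mural list Acta2 had 1692 against 317 CPM and Tagln 800 against 39.5. Rgs5 (259 against 355 CPM), Kcnj8 (10.6 against 38.9) and Abcc9 (63.8 against 165.5) were lower, and the other mural genes were higher. The 8 atrial genes summed to 494 CPM against 165. The 9 skeletal muscle genes summed to 864 against 221, of which Acta1 alone had 854.6 against 211.4. The 10 endothelial genes summed to 895.8 CPM against 1175, the 8 neutrophil genes to 14.6 against 40.2, and the 7 red blood cell genes to 3598 against 3573. In d4 matrix-rich spots 1 macrophage, 3 skeletal muscle and 0 atrial genes were at 0 UMIs. Which of these cells carried the Oxct1 UMIs was not tested. At d7 the skeletal muscle genes summed to 688 CPM in matrix-rich spots against 138 in the rest. Among them were Mylpf, at 114 against 3.34 CPM, and Myh3, at 88.7 against 0.981. Their part in the d7 Oxct1 ratio per cardiomyocyte UMI was not tested.

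Among the other enzymes of ketone body, acetate and sterol metabolism, Acss1 was called lower in matrix-rich spots. It had 59.3 CPM in matrix-rich spots against 66.0 in the rest at d1, 21.3 against 54.4 at d4, 38.0 against 117 at d7, and 119 against 248.5 at d14. Its ratio at d1 was 0.898, with an interval of 0.5125 to 1.48. The ratio was 0.391 at d4 (0.220 to 0.647), 0.324 at d7 (0.191 to 0.516) and 0.478 at d14 (0.355 to 0.632), and it was called on the last 3 days. Among all features 6.51%, 3.12% and 2.06% were called lower at d4, d7 and d14. The cardiomyocyte list was lower in the same spots as well, at 32605 against 73168 CPM at d4, and its part in the Acss1 ratio was not tested. Of the 5 measured genes of this list in each section, 0 were called higher, and Acss1 was the 1 called lower at d4, d7 and d14.

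Over quintiles of spots ordered by matrix share, Acat1 was lowest in the quintile with the most matrix. It had 359.8 CPM in the highest quintile against 534.5 in the lowest at d1, 240.4 against 498 at d4, 317 against 460.3 at d7, and 397 against 589 at d14. Oxct1 at d4 had 241, 215, 279, 292 and 281 CPM from the lowest to the highest quintile, so its top 3 quintiles lay above the lower pair. At d14, by contrast, Oxct1 had 568, 556, 566.5, 473.5 and 430.1 CPM from lowest to highest. Slc16a1 at d14 stayed at 222 to 245 CPM over the lower 4 quintiles and had 148 in the highest.

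**Figure D4:**
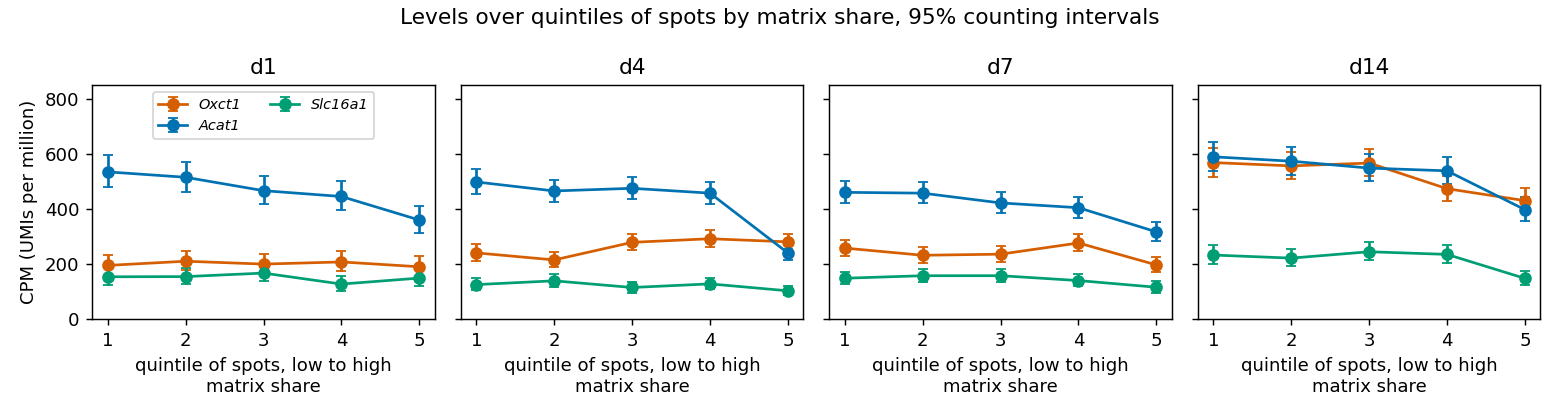
CPM of Oxct1, Acat1 and Slc16a1 over 5 equal groups of spots ordered by matrix share, low to high, in each section, with 95% counting intervals. Acat1 is lowest in the group with the most matrix in all 4 sections (240.4 CPM at d4), whereas Oxct1 at d4 has 281 CPM there against 241 in the group with the least.

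The higher Oxct1 level at d14 was present in both kinds of spots. In matrix-rich spots it was 375 CPM at d14 against 160.4 at d1, a ratio of 2.34 (1.68 to 3.32), and in the remaining spots 535 against 205, a ratio of 2.61 (2.38 to 2.86). For Slc16a1 the remaining spots had a ratio of 1.49 (1.33 to 1.68), 229 CPM at d14 against 153 at d1. The matrix-rich spots had 0.874 (0.555 to 1.39) for Slc16a1, 110 against 126 CPM, an interval that includes 1. For Acat1 the ratios were 0.979 (0.741 to 1.3) in matrix-rich spots and 1.15 (1.08 to 1.23) in the rest.

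Clustering each section's spots by expression placed the highest Oxct1 levels of d4 in a pair of clusters led by stress-associated muscle genes. A cluster of 45 spots led by Acta1, Spata13, Clic5, Nppb and Nmrk2 had 378 CPM of Oxct1 (331 to 430.5), and 1 of 26 spots led by Nppa, Casq1, Myl4 and Acta1 had 377 (323 to 437). The largest d4 cluster, of 177 spots, had 207 (181 to 235). In the same 3 clusters Acat1 had 446, 349 and 493 CPM, and Slc16a1 159.6, 152 and 112 CPM. The 8 atrial markers summed to 179, 457 and 90.4 CPM in these clusters, and Nppa is itself abundant in atria, so how much of the level in the 26-spot cluster came from atrial muscle was not tested.

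A list of 6 genes raised in stressed heart muscle (Acta1, Nppa, Nppb, Ankrd1, Xirp2 and Nmrk2), was then used to order the spots outside the matrix-rich class. It was chosen after these clusters were seen and shares Acta1, Nppa, Nppb and Nmrk2 with the genes that led them, so at d4 it restates the cluster levels and gives no separate support. At d4 Oxct1 had 364 CPM in the quintile with the highest share of these genes and 207 in the lowest. The ratio was 1.76 (1.46 to 2.127). It was 1.14 at d1 (0.8719 to 1.501), 1.22 at d7 (1.02 to 1.452) and 1.14 at d14 (0.9844 to 1.31). The d1 and d14 intervals included 1. At d4 the other measured members had ratios of 0.842 for Acat1 (0.7393 to 0.9601) and 1.15 for Slc16a1 (0.8905 to 1.486). The Slc16a1 interval included 1. The highest quintile at d4 was also the deepest, with a median of 14874 UMIs per spot against 5892 in the lowest, and its cardiomyocyte list summed to 66979 against 78141 CPM. The part of depth in the ratio was not tested.

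**Figure D5:**
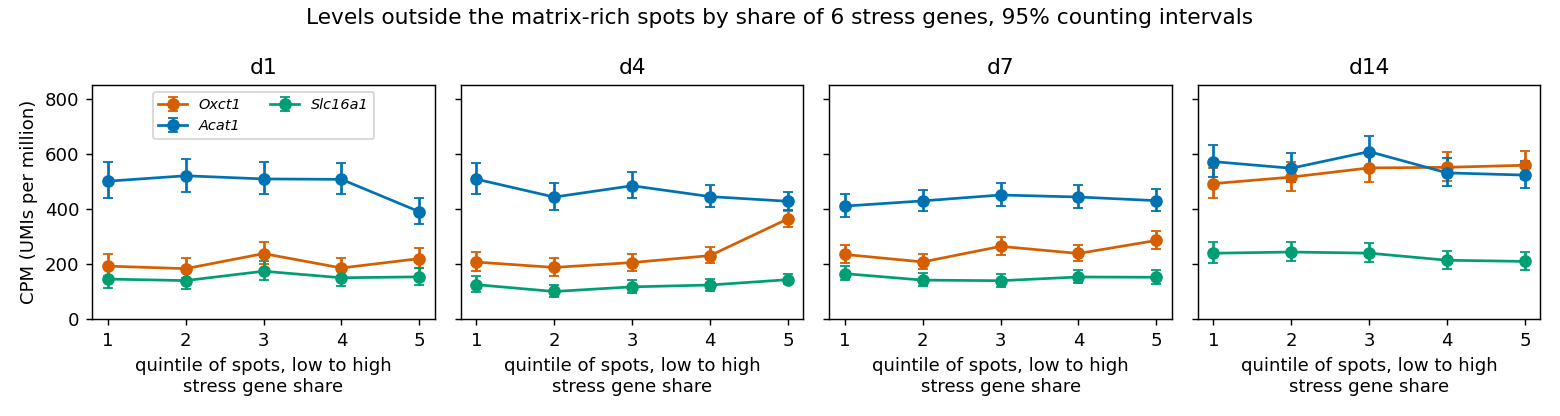
CPM of Oxct1, Acat1 and Slc16a1 outside the matrix-rich spots over 5 groups of spots ordered by the share of 6 stress-associated muscle genes, low to high, with 95% counting intervals. At d4 Oxct1 is at 364 CPM in the highest and 207 in the lowest group, and in the d14 section Oxct1 is at 492 CPM or more in every group.

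The genes whose pattern was most like each member were found over 8 pools, the matrix-rich and remaining spots of 4 days, among 6778 candidates of at least 20 CPM on average. Likeness was the root mean square difference of log2(CPM + 1) after centring each gene on its own mean, with 0 for the same pattern. Among the 5 nearest to Acat1 were Atp5a1 (0.08), Fh1, Ndufa8 and Alas1, of which the first 3 encode parts of oxidative phosphorylation or the citric acid cycle and Alas1 starts haem synthesis. For Slc16a1 the 5 were Mcur1 (0.10), Sdhc, Fem1a, Vdac1 and Mdh2. For Oxct1 the 5 were Cacna2d1 (0.21), Lynx1, Tsc22d1, Rsrp1 and Kcnk3, none of them an enzyme of fuel metabolism. The nearest Oxct1 gene was further away than the last of the 5 for Acat1 (0.09) or of Slc16a1 (0.15). Cacna2d1, a calcium channel subunit, had 47.8, 47.2, 40.8 and 93.9 CPM at d1, d4, d7 and d14.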

How the data were processed

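The authors deposited unnormalised UMI counts for each spot, written by Space Ranger 1.3.0 (per the file headers) with mm10 as the build per the submitters' processing notes, which also name Seurat 4.1.1 without a role. How the listed spots were chosen is not given in the sources used here. Spot positions were not used, spots can hold several cells, and no doublet call applies. Spots with at least 500 UMIs were kept and their counts pooled per section or region. The total left out 10 haemoglobin and 13 mitochondrially encoded genes. CPM values carry exact Poisson intervals, ratios exact conditional binomial (Clopper-Pearson) intervals, and ratios per list UMI exact odds ratio intervals. Only the conditional binomial intervals and the 2-fold rule were tested on simulated data. Between regions a feature needed 20 UMIs in the section to be measured.

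The members and gene lists were chosen with earlier results of these data known. The members were named in every comparison, other metabolic genes when past 2-fold or among the 4 with the most UMIs in their list, and a few others (Acss1, Ppargc1a, Ldha and genes at 0 UMIs) after their values were seen. Some genes that this rule would name are not reported here. Spots were clustered per section with Leiden (scanpy 1.11.5, igraph 0.11.9, resolution 0.8, 15 principal components, 15 neighbours, 2000 variable genes). Alternatives were the total over all genes, TMM factors (edgeR 4.0.16, R 4.3.3), other spot and level minimums, means over spots, thinning to 2500 UMIs, other shares and lists for matrix-rich spots, and 1.5-fold. Python 3.11.15, numpy 2.4.6, scipy 1.17.1 and pandas 2.3.3 were used. Genes were matched by ID to GENCODE vM21 for 32158 of 32285 features, and 3 of the 4 members had a RefSeq promoter.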

Additional observations from a re-analysis of the deposited data

How the results depend on the processing

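With 1 section per day, no section could be left out and no difference between hearts was measured. No paired analysis was possible because each day had 1 section. The Oxct1 ratio of d14 to d1 lay between 2.17 and 2.70 over all alternatives. Between days, directions turned for Acat1 at d14 against d1 per cardiomyocyte UMI (0.952), for Acat1 at d4 against d1 per cardiomyocyte (1.08) and per respiratory chain UMI (1.06), for Oxct1 at d7 against d4 with TMM scaling (1.06) and as a mean over spots (1.03), and for Slc16a1 at d7 against d4 per cardiomyocyte (0.982) and per respiratory chain UMI (0.973). The number of members called lower in matrix-rich spots depended on how those spots were chosen. Shares of all features called with the other choices of spots are not given here, so those counts cannot be set beside a background. At d1 it was 0, and 2 with the expression cluster richest in matrix or 1 at 1.5-fold. At d4 it was 1, and 2 with the top 5% or 0 with the top 20% of spots. At d7 it was 0, and 3 with the top 5%, 1 with the cluster or 2 at 1.5-fold. At d14 it was 1, and 2 with the top 5% or at 1.5-fold, and 0 with the top 20%, with a mixed injury list, with the cluster, or without the 10% most atrial spots, the last added after seeing the data. The cause was not tested. Per cardiomyocyte UMI every matrix-rich ratio of Oxct1, Acat1 and Slc16a1 was over 1.5 times its CPM value. Those of Oxct1 at d1 (1.18), d7 (1.54) and d14 (1.16), of Slc16a1 at d1 (1.24), d4 (1.59) and d7 (1.24), and of Acat1 at d7 (1.12) thereby passed to above 1. Within a section this change of scale multiplies the ratio of every gene by the same factor, so these shifts reflect the cardiomyocyte list alone. On the CPM scale, values that moved by over 1.5 times were the d1 ratios with the cluster (Acat1 0.374, Slc16a1 0.435) and the d7 ratios with the top 5% (Oxct1 0.478, Slc16a1 0.395), all further below 1. The Oxct1 ratio in d4 matrix-rich spots ranged over 0.789 to 1.11 on the CPM scale, and was 2.35 per cardiomyocyte and 2.27 per respiratory chain UMI. The share of all features called higher at d4 against d1 was 2.95% with TMM scaling and 8.30% with a minimum of 20 UMIs, and called lower 2.26% under each. At d7 against d4 the shares called higher were 1.13% and 1.46% and called lower 0.694% and 4.55% under those 2 settings, and 2.32% lower with the total over all genes. At d14 against d7, 6.35% were lower with 20 UMIs, and in d7 matrix-rich spots 5.00% were lower with a 50 CPM minimum.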

Other observations

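Other fuel genes gave the following values. Of 19 measured genes of branched-chain amino acid breakdown, whose isoleucine branch uses Acat1, 2 were called higher at d14 against d1 and 0 lower, with a median log2 ratio of 0.29, where 7.32% of all features were called higher and 6.07% lower. These were Bckdha, a subunit of the dehydrogenase that commits these amino acids to oxidation, at 242 CPM in d14 against 88.4 in d1, and Acadsb, at 80.6 against 36.6. Bckdhb and Dbt, other subunits of that dehydrogenase, were lower at d14, at 0.698 (0.577 to 0.843) and 0.633 (0.479 to 0.835) times d1. Bcat2 was at 0.716 (0.592 to 0.866). Against d7, 5 of the 19 were called higher at d14 and 0 lower, where 5.04% of all features were higher and 3.51% lower. The 5 were Bckdha, Acadsb, Ppm1k, Ivd and Aldh6a1. Pdk4, 1 of the kinases that hold back pyruvate oxidation, had 182, 78.3, 48.7 and 288 CPM at d1, d4, d7 and d14. The other kinases of this kind differed in direction at d14 against d1. Pdk2 was at 1.92 times d1 (1.679 to 2.199), Pdk1 at 0.408 (0.3503 to 0.4745) and Pdk3 at 0.2236 (0.1285 to 0.3731). In that comparison Pdk3 reached 20 CPM through d1 alone, so its call could only be lower. Lactate dehydrogenase genes had 1500, 1023, 1014 and 880.2 CPM for Ldha and 1761, 1457, 1648 and 2155 CPM for Ldhb over the 4 days.

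At d14 against d1, of 22 fatty acid oxidation genes, 0 were called higher and 1 lower (Acot2, a thioesterase, at 121 CPM in d14 against 291.5 in d1), and of 16 citric acid cycle genes 0 were called in either direction. Of all features 7.32% were called higher and 6.07% lower in that comparison. In d4 matrix-rich spots against the rest, 19 of 22 fatty acid oxidation genes, 10 of 16 citric acid cycle genes and 19 of 20 respiratory chain genes were called lower, with median log2 ratios of -1.53, -1.10 and -1.14, beside 0.09 for all features, of which 6.51% were called lower. The cardiomyocyte list summed to 32605 CPM in the same spots against 73168 in the rest, and its part in these counts was not tested. Slc16a3, Slc16a6 and Slc16a12 were called higher there, as were 10.5% of all features, Slc16a3 at 31.9 against 4.91 CPM. These calls rest on few UMIs, in that order 24, 7 and 14 in matrix-rich spots and 25, 14 and 34 in the rest. The lower bounds of their ratio intervals were 3.55, 1.16 and 1.38.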
